A study of Mus musculus with 4 samples.

Results

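The 3 genes of the GADD45 family, the p53 gene Trp53 and 6 genes known as p53 targets (Mdm2, Cdkn1a, Ccng1, Bbc3, Pmaip1 and Zmat3) were followed in Mnk3, a mouse cell line with features of group 3 innate lymphoid cells (ILC3). They were taken by symbol as a set chosen with earlier results of these data known, 10 genes of the 41388 in the count tables. RNA-seq after removal of ribosomal RNA compared 2 libraries of untreated cells (control 1 and 2) with 2 libraries of cells given IL-1b and IL-23, each at 10 ng/ml, for some 16 h (stimulated 1 and 2). In each group the library called 1 has rep1 in its title and the other has no number. All 4 libraries come from a single cell line, and the labels name no separate cultures, so p-values reflect only how far these libraries lay apart, a spread that may be technical.

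Summed gene counts per library lay between 23047723 and 29078765. Of 12 ILC3 markers (such as Kit, Il7r and Il23r), 11 were at 1 CPM or more in every library. CPM is the count per 1000000 counts of the library, with the library size scaled by TMM. Of 16 markers of T cells, B cells, myeloid, stromal, epithelial and red blood cells, only Cd3d was, and the summed level of the 16 was 15.5 to 24.4 CPM over the 4 libraries. Adgre1, a macrophage marker among them, was at 0.0664 and 0 CPM in controls 1 and 2 but at 1.74 and 8.19 CPM in stimulated 1 and 2, while Lyz2 was at 0 counts throughout, and their part in the results below was not tested. In bulk RNA, fewer cells with a transcript and less of it per cell cannot be told apart.

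The tumour suppressor p53 is a transcription factor that accumulates when DNA is damaged or growth signals are abnormal, and it switches on genes for cell cycle arrest, repair and death. One of these, Mdm2, encodes the ubiquitin ligase that degrades p53 and so closes a feedback loop. GADD45 proteins are small stress sensors that bind and activate the kinase MAP3K4, which lies upstream of p38 and JNK, and that also contact PCNA and CDK1. Gadd45a is a classical p53 target, whereas Gadd45b is known as a target of NF-kB, and Gadd45b and Gadd45g are known in T cells for sustaining p38 activity and interferon gamma production.

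The promoters of the 3 paralogs are shown because these genes shared a family and moved in opposite directions. RefSeq windows (build GRCm38.p6) of the 250 bases before the start were found for 8 of the 10 genes. Printed are the bases of each window that lie outside the gene in both the count tables and GENCODE M21, read 5′ to 3′ on the gene's strand. They are 200 bases at chr6:67037458-67037657 on the minus strand for Gadd45a, 232 bases at chr10:80929841-80930072 on the plus strand for Gadd45b and 250 bases at chr13:51846425-51846674 on the plus strand for Gadd45g. Capitals mark CCAAT boxes and the TATA box.
Gadd45a: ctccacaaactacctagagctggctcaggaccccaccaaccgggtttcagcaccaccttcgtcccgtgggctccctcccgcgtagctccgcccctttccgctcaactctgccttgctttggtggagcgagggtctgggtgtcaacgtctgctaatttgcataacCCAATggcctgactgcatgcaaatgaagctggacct
Gadd45b: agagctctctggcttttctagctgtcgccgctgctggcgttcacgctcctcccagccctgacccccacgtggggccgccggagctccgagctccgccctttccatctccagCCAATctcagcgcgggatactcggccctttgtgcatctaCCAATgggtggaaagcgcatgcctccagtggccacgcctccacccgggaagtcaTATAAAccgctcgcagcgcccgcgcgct
Gadd45g: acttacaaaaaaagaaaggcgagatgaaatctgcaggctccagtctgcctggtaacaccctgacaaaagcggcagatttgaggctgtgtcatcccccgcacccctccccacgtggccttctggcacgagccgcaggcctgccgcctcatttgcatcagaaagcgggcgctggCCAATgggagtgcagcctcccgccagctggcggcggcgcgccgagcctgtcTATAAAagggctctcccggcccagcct

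The windows of Gadd45b and Gadd45g held the TATA box TATAAA on the gene's strand, at -46 to -41 and -27 to -22 from the start, and that of Gadd45a did not on either strand. Of all 32851 RefSeq windows, 12.4% held TATAAA on either strand. Of the 8 genes with a window 3 did, the third being Trp53, on the other strand at -248 to -243. Trp53 did not pass the test of stimulation below, and any link of the TATA box to direction was not tested. Each paralog had a CCAAT box (CCAAT, 33.9% of all windows), and Gadd45b had 2. The p53 decamer, the repeat unit of p53 response elements, was found once in the Gadd45a window, as GGGCTAGCCC at -40 to -31, which lies in the last 50 bases of the window, inside the gene as the count tables list it, and so is not in the run above. Neither other paralog had one. It also occurred in the windows of Trp53 (GGACTTGCCC), Mdm2 (GAACTTGCCT), Ccng1 (GGGCAAGCCT) and Cdkn1a, of which one window had both GGACTAGCTT at -73 to -64 and GAACATGTCT at -51 to -42. That made 5 of the 8 genes with a window, against 7.13% of all windows. These figures are not alike, as Cdkn1a and Bbc3 had more than 1 window each. Mdm2, Cdkn1a, Ccng1 and Bbc3 were also listed as known p53 targets, and Gadd45a is known as one too. A share above that of all windows could thus be foreseen from the choice of genes and is no result. Searches on both strands for the kappaB decamer (3.90% of windows), the AP-1 site TGANTCA (6.75%), the cyclic AMP element TGACGTCA (1.55%) and the STAT palindrome TTCNNNGAA (7.02%) gave matches only for the kappaB decamer in Bbc3, GGGAAACCCC at -137 to -128, which overlapped another match shifted by 1 base; GENCODE M21 places that window inside the Bbc3 gene. Such matches are letters in a short window and not sites of binding.

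Of the 10 genes, 9 had enough counts to be tested. Of these, 3 rose (Gadd45b, Gadd45g and Mdm2), 2 fell (Gadd45a and Bbc3), and 4 did not pass the threshold of an edgeR adjusted p under 0.05 (Trp53, Cdkn1a, Ccng1 and Zmat3). Over all 13838 genes tested, 35.8% passed, 17.5% as higher and 18.3% as lower. The groups did not overlap in CPM for 5 of the 9, the genes that passed, against 70.7% of all tested genes. The median log2 fold change of stimulated over control was 0.19 for the 9 genes and -0.016 for all tested genes. Levels are CPM scaled by TMM, given as mean ± SD with n = 2 per group, and changes are log2 fold changes ± SE, where the SE is the absolute change over the square root of its F statistic.

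**Figure D1:**
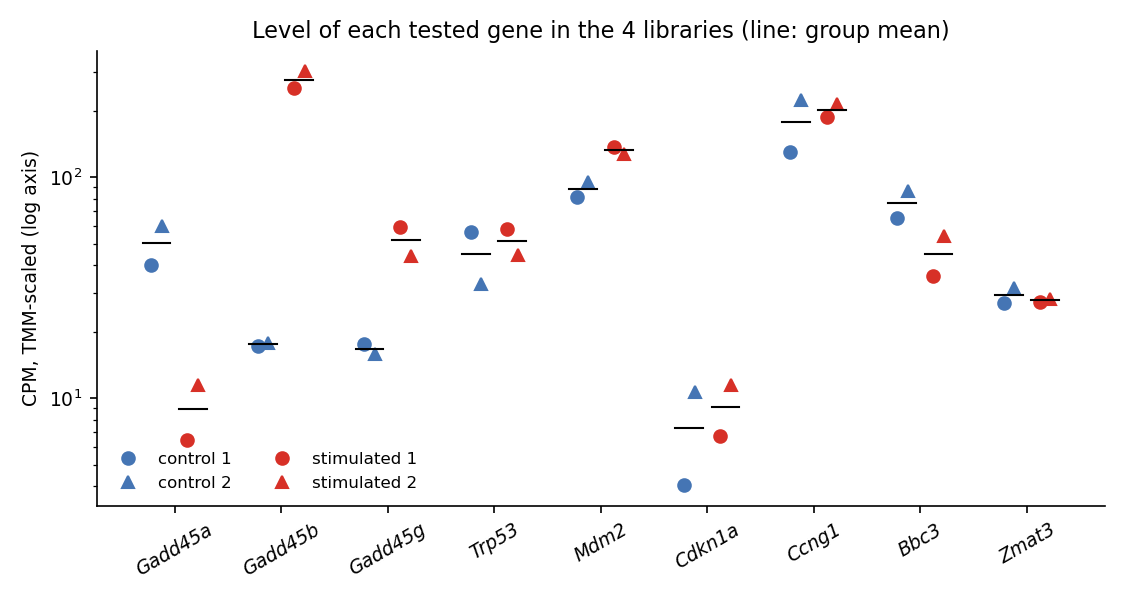
CPM (TMM-scaled, log axis) of the 9 tested genes in the 4 libraries: blue, control; red, stimulated; circles, library 1; triangles, library 2; black lines, group means. Gadd45b, Gadd45g and Mdm2 lie higher and Gadd45a and Bbc3 lower in both stimulated libraries, while Trp53, Cdkn1a, Ccng1 and Zmat3 overlap; Pmaip1, with 1 count in all, is not drawn.

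Within the GADD45 family the members moved apart. Gadd45a, the paralog known as a p53 target, had 40.2 and 60.1 CPM in controls 1 and 2 and 6.49 and 11.4 CPM in stimulated 1 and 2. Both stimulated libraries were far below both controls. The mean went down from 50.15 ± 14.1 to 8.96 ± 3.49 CPM, which is 5.61-fold lower (log2 change -2.49 ± 0.34, edgeR adjusted p = 0.00366). With 1 library left out the change was between -2.92 and -2.13.

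Gadd45b, first described as a myeloid differentiation response gene, had 17.2 and 17.8 CPM without stimulation, against 252 and 301 CPM with it. The controls were nearly equal and both stimulated libraries were more than 10 times higher. The mean rose 15.8-fold, from 17.5 ± 0.478 to 277 ± 34.6 CPM (log2 change 3.98 ± 0.17, edgeR adjusted p = 0.000134). Among the 13838 tested genes, 116 including Gadd45b had as high a change. Leaving out 1 library gave 3.88 to 4.11.

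Gadd45g, the paralog first found as a cytokine-responsive gene, had 17.6 and 15.9 CPM in the controls and 59.6 and 44.1 CPM after stimulation. It moved with Gadd45b in direction but by less, and its groups were also separate. The mean rose 3.10-fold, from 16.7 ± 1.16 to 51.8 ± 10.96 CPM (log2 change 1.63 ± 0.19, edgeR adjusted p = 0.00133). With 1 library left out the change was 1.40 to 1.86.

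Per kilobase of the listed length, Gadd45a was the most abundant paralog in both controls and the least abundant in both stimulated libraries. Its share of the summed GADD45 level was 44.4% and 55.2% in controls 1 and 2, against only 1.45% and 2.30% in the stimulated libraries 1 and 2. The share of Gadd45b went from 26.4% and 22.8% to 78.5% and 84.4%, and that of Gadd45g from 29.2% and 22.0% to 20.0% and 13.3%. Gadd45g thus rose in CPM while its share of the family did not increase.

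The summed level of the family was 51.3 and 61.7 CPM per kilobase in controls 1 and 2, against 254 and 282 after stimulation, 4.74-fold higher on average. On the log2 scale the ratio of Gadd45b to Gadd45a per kilobase was -1.01 ± 0.37 in controls and 5.48 ± 0.40 in stimulated cells, a difference of 6.49. An exact two-sided permutation test gave p = 0.333, the smallest that 2 libraries against 2 allow.

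**Figure D2:**
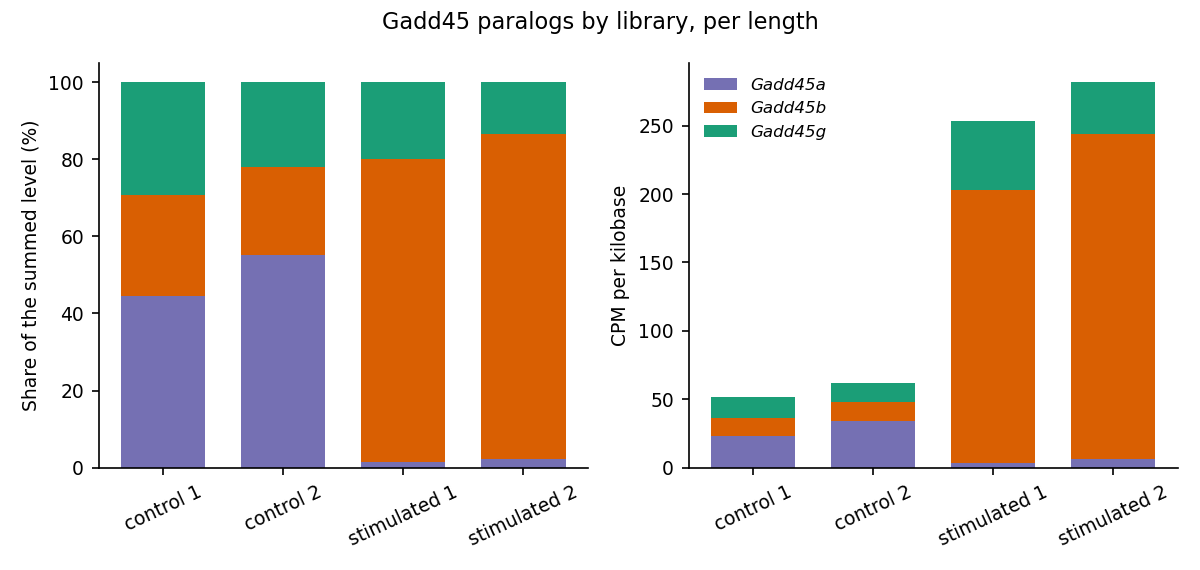
Gadd45a, Gadd45b and Gadd45g in each library as shares of their summed level (left, %) and as stacked CPM per kilobase (right). Gadd45a holds 44.4% and 55.2% of the control libraries and 1.45% and 2.30% of the stimulated ones, where Gadd45b holds 78.5% and 84.4%.

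The count tables place Gadd45a on the minus strand of chromosome 6 (67035096 to 67037457). Gadd45b is on the plus strand of chromosome 10 (80930091 to 80932204) and Gadd45g on the plus strand of chromosome 13 (51846678 to 51848468), and all 3 are protein-coding. Gadd45a shares 337 exonic bases with E230016M11Rik, a noncoding gene on the opposite strand, and whether counting used strand is not stated in the sources used here. That gene had 58, 41, 16 and 25 counts in controls 1 and 2 and stimulated 1 and 2, against 1211, 1760, 164 and 261 for Gadd45a. No stretch of 50 bases of the annotated Gadd45b or Gadd45g transcripts occurred in a transcript of another gene.

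The genes of nearest pattern to each paralog were found by Euclidean distance between log2 CPM over the 4 libraries, centred on the gene's mean, among 9464 tested genes with a mean of at least 5 CPM over the 4 libraries and a symbol that is no predicted, clone or cDNA name. Impg1, Serpinb9c and F2rl2, below, reached that mean only through the group in which they were high. For Gadd45a the nearest was Trp53inp1, itself known as a p53 target, which changed by -2.52 ± 0.29, from 401 ± 112 to 70.1 ± 21.2 CPM (edgeR adjusted p = 0.00209, distance 0.1299). Impg1 (0.145) and Rgs1 (0.233), a regulator of G protein signalling in lymphocytes, came next, and Rgs1 passed with all libraries (edgeR adjusted p = 0.0103) but not without control 1 (0.056) or control 2 (0.0806). Its change was -2.42 with all libraries and -3.05 without stimulated 2.

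Nearest to Gadd45b were Zeb2 (distance 0.252), a transcription factor of effector lymphocytes, Serpinb9c (0.431) and Slc15a3 (0.440), a lysosomal peptide transporter. Zeb2 changed by 3.76 ± 0.15 (edgeR adjusted p = 0.000134). Polr1b (0.0641), a subunit of RNA polymerase I, Eif2b3 (0.0685), a subunit of the exchange factor of translation initiation, and F2rl2 (0.0727) lay nearest to Gadd45g. With 4 libraries, such nearness mainly says that fold changes were alike.

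Trp53 itself did not pass. Its level was 56.7 and 32.8 CPM in controls 1 and 2 and 58.1 and 44.3 CPM in stimulated 1 and 2, so that the groups overlapped. The log2 change was 0.19 ± 0.28 (edgeR adjusted p = 0.633), -0.15 without control 2 and 0.64 without control 1. Of the stretches of 50 bases in Trp53 transcripts, 3.64% also occur in the pseudogene Trp53-ps, which had 0 counts in every library. In all, 205 other genes share stretches with Trp53, 985 with Mdm2 and 217 with Zmat3. The largest share with any 1 gene was 1.0% for Mdm2 and 0.366% for Zmat3.

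Mdm2, the feedback ligase of p53, had 81.2 and 94.8 CPM in the controls and 137 and 128 CPM after stimulation, and both stimulated libraries were above both controls. The rise was 1.51-fold (log2 change 0.59 ± 0.14, edgeR adjusted p = 0.0188). The call ended without control 1 (adjusted p = 0.0929, change 0.48) and without stimulated 1 (adjusted p = 0.0791, change 0.54). At 0.59, 42.1% of all tested genes had as large an absolute change.

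Cdkn1a and Ccng1, both p53 targets tied to the cell cycle, did not pass with all libraries in the fit. Cdkn1a, which encodes the CDK inhibitor p21 and is the best known p53 target, was low, at 4.05 and 10.6 CPM in controls 1 and 2 and 6.73 and 11.5 CPM in stimulated 1 and 2. The libraries of each group differed from each other by more than the groups did. Its log2 change was 0.31 ± 0.52 (edgeR adjusted p = 0.676), with a range of -0.22 to 1.17 when 1 library was left out. Stretches of 50 bases of Cdkn1a transcripts occur in 584 other genes, at most 6.34% of them in any 1 gene. The effect of that on its low counts was not tested.

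Ccng1, the gene of cyclin G1, a p53 target that engages the phosphatase PP2A, was the most abundant of the 10 genes in controls. It had 130 and 224 CPM in controls 1 and 2 and 188 and 214 CPM in stimulated 1 and 2, with the stimulated values between those of the controls. The log2 change was 0.19 ± 0.26 (edgeR adjusted p = 0.62), and without control 2 it was 0.63 and passed (0.0376). Zmat3, an RNA-binding zinc finger protein that regulates splicing, varied least, with 27.1 and 31.5 CPM before and 27.4 and 28.0 CPM after stimulation (log2 change -0.08 ± 0.15, edgeR adjusted p = 0.711).

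The 2 genes of death-inducing BH3-only proteins differed in level. Bbc3, which encodes PUMA, had 65.5 and 86.7 CPM before stimulation and 35.6 and 54.1 CPM after it, with all stimulated values below the controls. The log2 change was -0.76 ± 0.24, or 1.70-fold lower, and stood at the edge of the threshold (edgeR adjusted p = 0.0488). It did not pass without control 2 (0.155, change -0.55) or stimulated 1 (0.166, change -0.49), with total-count scaling (0.0535), with a filter at 1 CPM (0.0504) or without robust estimation (0.0523).

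Pmaip1, which encodes NOXA, the partner that targets MCL1, had 1 count in control 1 and 0 in the other 3 libraries and was not tested. A count of 0 allows up to 3 counts, or 0.102 CPM in control 2, 0.119 in stimulated 1 and 0.131 in stimulated 2, where these limits cover counting error only. Any level below those limits was not detectable at this depth.

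**Figure D3:**
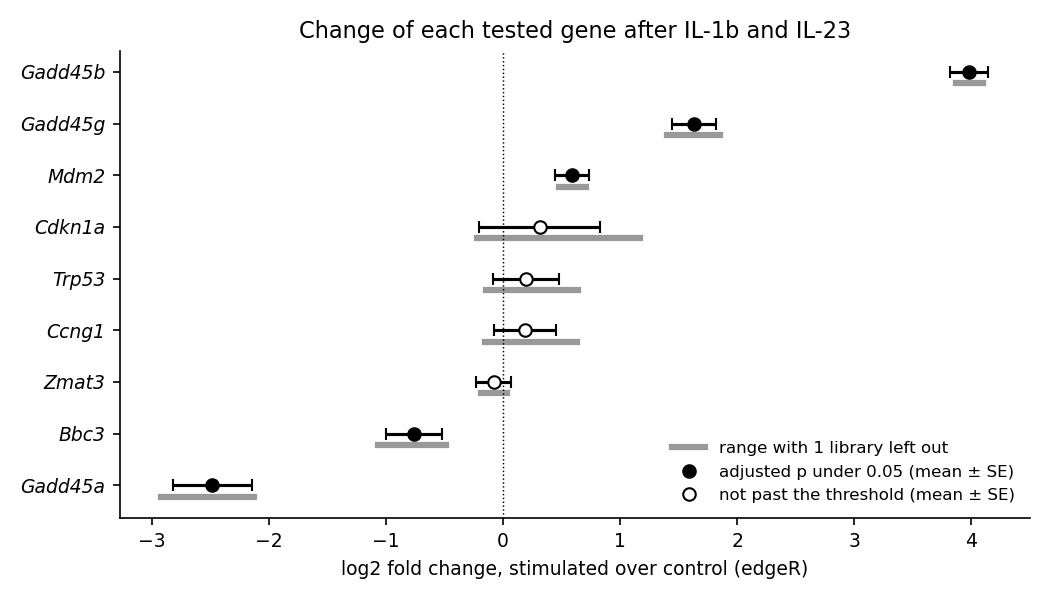
Log2 fold change of stimulated over control for the 9 tested genes (points, edgeR estimate; bars, SE; filled, adjusted p under 0.05), with the range over fits that leave out 1 library in grey. Gadd45b (3.98), Gadd45g (1.63), Mdm2 (0.59), Bbc3 (-0.76) and Gadd45a (-2.49) are filled, and the grey ranges of Cdkn1a, Trp53, Ccng1 and Zmat3 cross 0.

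Ordered by level per kilobase, the controls began with Ccng1 (50.3 ± 18.9 CPM per kilobase), Bbc3 (37.9 ± 7.48) and Gadd45a (28.4 ± 7.99), neighbours whose libraries overlapped. Mdm2 followed at 17.4 ± 1.89, below Gadd45a and above Gadd45g (14.3 ± 0.986) in every control library. Gadd45g, Gadd45b (13.8 ± 0.378) and Trp53 (11.1 ± 4.17) could not be ordered beyond their spread, nor could Zmat3 (3.62 ± 0.389) and Cdkn1a (3.30 ± 2.09).

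In stimulated cells Gadd45b led with 218 ± 27.3 CPM per kilobase, above Ccng1 (57.3 ± 5.19) and Gadd45g (44.2 ± 9.35) in both libraries. Mdm2 (26.1 ± 1.27) and Bbc3 (22.4 ± 6.52) overlapped each other, and Trp53 (12.7 ± 2.41) lay below both. Gadd45a (5.08 ± 1.98), Cdkn1a (4.10 ± 1.52) and Zmat3 (3.42 ± 0.0576) came last of the tested genes, with overlapping neighbours. Gadd45a thus went from place 3 to place 7 and Gadd45b from place 6 to place 1 of the 10.

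The libraries called 1 and 2 differed in the same direction in both groups for 8 of the 9 tested genes, all but Mdm2. Over 9517 tested genes with a mean of at least 5 CPM in both groups, 71.0% did so. The gap of library 1 minus library 2 in log2 CPM was widest for Cdkn1a among controls (-1.39, and -0.77 after stimulation) and for Gadd45a after stimulation (-0.82, and -0.58 among controls). Trp53 had gaps of 0.79 and 0.39 in the controls and the stimulated libraries, Bbc3 of -0.41 and -0.60 and Ccng1 of -0.79 and -0.19. Trp53 was thus higher and its target Cdkn1a lower in the library numbered 1 of either group.

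**Figure D4:**
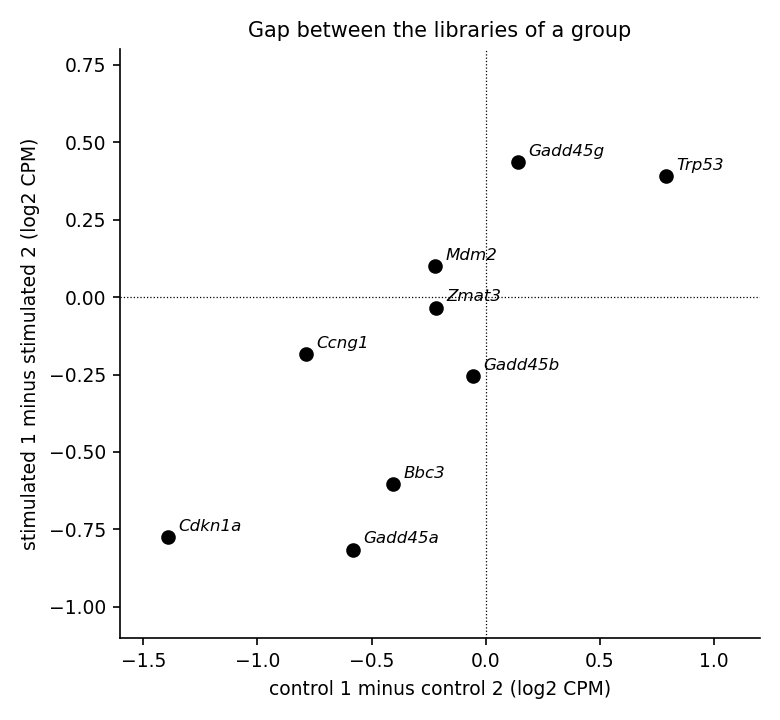
Difference in log2 CPM between library 1 and library 2, in controls (horizontal axis) and in stimulated cells (vertical axis), for each of the 9 tested genes. Cdkn1a (-1.39, -0.77) and Gadd45a (-0.58, -0.82) lie at the lower left and Trp53 (0.79, 0.39) at the upper right, and only Mdm2 has gaps of opposite sign.

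Other known p53 targets moved in both directions. Of 36 listed, 31 were tested, and 7 rose, 4 fell and 20 did not pass, so 35.5% passed, close to the 35.8% of all tested genes. Their median log2 change was -0.10. Fas, the death receptor gene, went from 1 count in the controls together to 518 in the stimulated libraries, a ratio of 640 with an exact 95% counting interval of 114 to 25319. The fitted log2 value of Fas, 8.95, moved to 8.09 when control 1 was dropped and to 11.12 when control 2 was. Aen, an apoptosis-enhancing nuclease, rose from 52.3 ± 3.91 to 109.7 ± 1.68 CPM (1.07 ± 0.14, edgeR adjusted p = 0.00179).

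Among the 7 p53 targets that rose were also Tigar (0.77 ± 0.16), Fdxr (0.73 ± 0.14) and Gtse1 (0.52 ± 0.14). Eda2r rose as well (2.19 ± 0.47), to only 0.94 CPM, and these genes are named after their values were seen. The 4 p53 targets that fell were Trp53inp1, Ddb2, Xpc and Btg2, the last pair named after their values were seen. Ddb2 and Xpc encode the damage sensors of nucleotide excision repair. Ddb2 went down from 30.2 ± 1.57 to 11.2 ± 0.678 CPM (-1.43 ± 0.16, edgeR adjusted p = 0.00115). Xpc, at 45.2 ± 3.66 CPM in controls, was at 24.3 ± 0.605 CPM after stimulation (-0.90 ± 0.15, edgeR adjusted p = 0.00437). Btg2, an antiproliferative gene, changed by -0.88 ± 0.22 and did not pass without control 2 (edgeR adjusted p = 0.0639) or stimulated 1 (0.0836). Abundant targets that did not pass were Gpx1, a glutathione peroxidase (0.68 ± 0.25, edgeR adjusted p = 0.0797; 0.0271 in DESeq2, 0.000602 without the low-count filter, 0.0116 without control 1 and 0.0341 without stimulated 2), and Sesn1 (-0.17 ± 0.28, edgeR adjusted p = 0.685).

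Among 22 tested regulators and relatives of p53 (24 listed), 3 rose, 3 fell and 16 did not pass, with a median of -0.03. The share past the threshold was 27.3%, below the 35.8% of all tested genes. Cdkn2a, which has ARF, a restraint on MDM2, among its products, rose from 92.1 ± 2.63 to 189 ± 40.0 CPM (1.04 ± 0.18, edgeR adjusted p = 0.00509). Counts per gene do not tell the transcripts of Cdkn2a apart. Rpl11 and Rpl5, ribosomal proteins that bind MDM2, changed by 1.51 ± 0.20 and 1.004 ± 0.20, but such genes have many processed copies that can share their reads, and their counts are uncertain. Those that fell were the damage kinases Prkdc, Atm and Chek2, of which Atm and Chek2 are named after their values were seen. Not all damage kinases of the list passed. Atr (-0.25 ± 0.16, edgeR adjusted p = 0.278) and Chek1 (-0.52 ± 0.18, 0.0606) did not. Prkdc, the catalytic subunit of DNA-PK, changed by -0.75 ± 0.16 (edgeR adjusted p = 0.0126; 0.0657 without stimulated 1), Atm by -0.61 ± 0.17 (edgeR adjusted p = 0.0294; 0.0574 without control 2 and 0.163 without stimulated 1) and Chek2 by -0.67 ± 0.17 (edgeR adjusted p = 0.0238; 0.0859 without control 2 and 0.119 without stimulated 1). Without control 2, 1 gene of this list was lower, and without stimulated 1 there were 0. Usp7 (0.26 ± 0.14) and Ep300 (-0.04 ± 0.13) did not pass.

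GADD45 partners and other GADD genes were called in both directions. Of 16 tested (18 listed), 4 rose, 4 fell and 8 did not pass, with a median of -0.0047. Thus 8 of the 16 passed, against 35.8% of all tested genes. Map3k4, the kinase that GADD45 proteins activate, is named after its values were seen and had 43.1 ± 0.0283 CPM in controls and 31.5 ± 0.292 CPM after stimulation (-0.45 ± 0.14, edgeR adjusted p = 0.0397). Its call as lower was lost with any 1 library left out, at adjusted p of 0.129 and 0.12 without controls 1 and 2 and of 0.166 and 0.191 without stimulated 1 and 2. Mapk14, the gene of p38 alpha, had 233.7 ± 23.1 CPM in controls and 135 ± 29.1 CPM after stimulation (-0.79 ± 0.19, edgeR adjusted p = 0.0171; 0.0835 without stimulated 2), and the p38 kinase kinase Map2k6 changed by -1.28 ± 0.23 (edgeR adjusted p = 0.00608). Gadd45gip1, a mitochondrial protein named for binding GADD45 gamma, rose by 1.09 ± 0.14 (edgeR adjusted p = 0.0017), and Ddit3, the stress factor CHOP once called GADD153, by 0.82 ± 0.18 (edgeR adjusted p = 0.0132; 0.0669 without stimulated 2). Pcna (-0.26 ± 0.14) and Cdk1 (0.35 ± 0.13; 0.0408 in DESeq2) did not pass. The counts were 2 higher and 2 lower without control 1 or stimulated 1, and 2 higher and 1 lower without stimulated 2.

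In the list of p21 partners and G1 control, all 19 members were tested, and 5 rose, 4 fell and 10 did not pass (median -0.09). That is 47.4% past the threshold, against 35.8% of all tested genes. The 6 lists hold 130 distinct genes and overlap. Cdk1, Pcna, Ccna2, Ccnb1 and Bax each stand in more than 1 list, so the list counts are not separate results. Cdkn1b, which encodes p27, had 361 ± 41.2 CPM in controls and 169.6 ± 13.8 CPM after stimulation (-1.09 ± 0.16, edgeR adjusted p = 0.00266), and Cdkn1c, which encodes p57 and is named here after its values were seen, changed by -1.34 ± 0.31 (edgeR adjusted p = 0.0161; 0.0668 without stimulated 1). Rbl2, the pocket protein p130, changed by -0.88 ± 0.14. Cdk6 rose by 1.23 ± 0.16 (edgeR adjusted p = 0.00178) and the D cyclin Ccnd2 by 3.17 ± 0.45 to 8.18 ± 2.59 CPM (3.89 without control 1), while Cdk4 (0.39 ± 0.13; 0.0184 in DESeq2) did not pass. Higher members numbered 2 without control 2 or stimulated 1 and 3 without stimulated 2, and lower ones numbered 2 without stimulated 1.

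PUMA acts by binding survival proteins of the BCL-2 family. Of 14 tested members of this list (19 listed), 2 rose, 2 fell and 10 did not pass (median 0.03), so 28.6% passed, against 35.8% of all tested genes. Bcl2 had 296 ± 48.7 CPM in controls and 125 ± 20.2 CPM after stimulation (-1.24 ± 0.19, edgeR adjusted p = 0.00314), and Casp9, the initiator caspase of the mitochondrial pathway, changed by -1.29 ± 0.22. Bak1 rose by 0.60 ± 0.13 (edgeR adjusted p = 0.0126; 0.0667 without stimulated 1) and Bcl2l11, the BH3-only gene of BIM, by 0.99 ± 0.25 (edgeR adjusted p = 0.0263). Bcl2l11 missed the threshold when control 1 (0.118), control 2 (0.111) or stimulated 1 (0.0791) was left out. Without stimulated 1 no member was called higher, a count of 0, and without control 2 there was 1. Mcl1 (0.29 ± 0.16) and Bax (0.21 ± 0.13) did not pass. Per kilobase, Bbc3 lay at 37.9 ± 7.48 CPM in controls and 22.4 ± 6.52 after stimulation, Bcl2 at 32.4 ± 5.32 and 13.7 ± 2.20, and Mcl1 above both at 92.8 ± 14.4 and 114 ± 3.10.

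Of the genes that p53 is known to repress through p21 and the DREAM complex, mostly of the cell cycle, all 20 were tested, and 5 rose, 2 fell and 13 did not pass. The share past the threshold, 35.0%, was close to the 35.8% of all tested genes, and the median log2 change was 0.37. Top2a, the DNA topoisomerase of dividing cells, rose from 2571.5 ± 310.1 to 4175 ± 60.6 CPM (0.70 ± 0.17, edgeR adjusted p = 0.0203), and the mitotic checkpoint kinase Bub1b by 0.70 ± 0.18 (edgeR adjusted p = 0.0227). Mcm6, a subunit of the replicative helicase, changed by -0.77 ± 0.15 (edgeR adjusted p = 0.0091). Mki67 (-0.14 ± 0.23) and Mcm5 (-0.38 ± 0.15; 0.0352 with total-count scaling and 0.0472 with the upper quartile) did not pass.

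Calls in the DREAM list depended on single libraries. Top2a did not pass without control 1 (0.111) or stimulated 1 (0.0531), and Bub1b without control 2 (0.0607) or stimulated 1 (0.125). Ccnb1, a cyclin of mitosis (0.51 ± 0.14, edgeR adjusted p = 0.0268), did not pass without control 1 (0.131), stimulated 1 (0.121) or stimulated 2 (0.0753). The count of higher genes was 3 without either control and 0 without stimulated 1, and that of lower genes was 1 without any 1 of the 4 libraries.

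**Figure D5:**
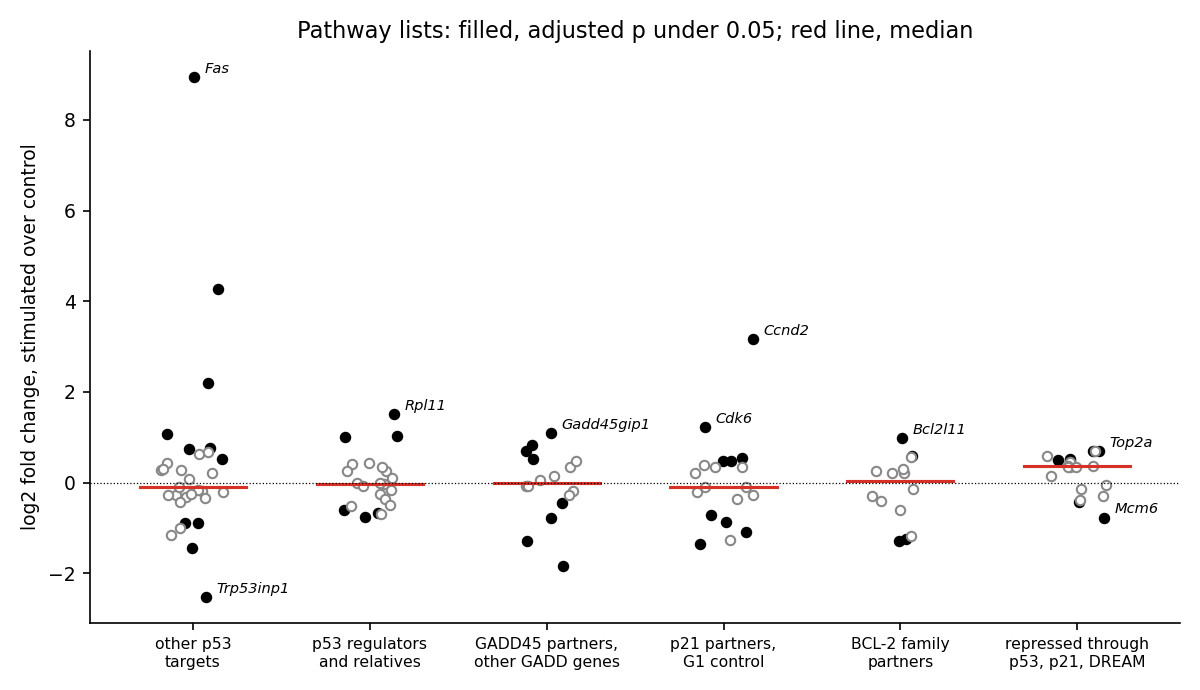
Log2 fold change of stimulated over control for the tested genes of 6 pathway lists (horizontal position within a list has no meaning; filled, adjusted p under 0.05; red line, list median). Genes above and below 0 are filled in every list, and Fas, drawn at its fitted value, rests on 1 control count.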

How the data were processed

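Ribosomal RNA-depleted total RNA of Mnk3 cells was sequenced, 2 control and 2 stimulated libraries. The submitters' processing notes list STAR, Subread and featureCounts without version or role; build, annotation and use of strand are not stated in the sources used here. The deposited count per gene is a whole number, per the file headers and values. The deposited CPM is that count scaled to 1000000 summed counts, and the deposited RPKM is that CPM per kilobase, both made by the authors and checked on the values; neither was used further.

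Symbols came from GENCODE M21; for 76.1% of matched genes both ends were identical to the tables'. edgeR 4.0.16 in R 4.3.3 (quasi-likelihood test, filterByExpr, TMM, robust, treatment as the only term) was fitted to all genes, with Benjamini-Hochberg adjustment over 13838 genes, and was tested on simulated data. Alternatives were DESeq2 1.42.0, limma-voom (limma 3.58.1), other scalings and filters, no robust estimation, a replicate block and each library left out. The common biological coefficient of variation was 18.4%, and intervals cover counting error only.

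The 10 genes, the 6 lists and the naming rule were chosen with earlier results of these data known. The rule took all 10 genes, from each list the 4 past the threshold by lowest adjusted p and the 2 of highest level not past it, and the 3 nearest patterns of each Gadd45 gene and Cdkn1a; some genes it took are not reported here.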

Additional observations from a re-analysis of the deposited data

How the results depend on the processing

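The directions of Gadd45a, Gadd45b, Gadd45g, Mdm2 and Bbc3 were the same under all alternatives, and the calls of the Gadd45 genes held in all of them. Members called lower numbered 1 in place of 2 with total-count scaling, the 1 CPM filter and no robust estimation, where Bbc3 missed the threshold. Leaving out 1 library gave 2 to 4 members higher and 1 to 2 lower, and over all genes 1593 to 2001 higher and 1665 to 2035 lower. It turned the sign of Trp53 (-0.15 to 0.64), Cdkn1a (-0.22 to 1.17), Ccng1 (-0.16 to 0.63) and Zmat3 (-0.19 to 0.031). Fits that leave out 1 library hold the library numbers unequally between the groups, and the part of that in these turns was not tested.

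The titles give a shared number, rep1, to 1 library of each group only. Deviations from the group means correlated at 0.49 between those libraries, across 13838 genes. With 2 libraries per group the pair without a number has the same value by construction, so it is not particular to the rep1 pair. With the replicate block 3986 genes were higher and 4000 lower; 9 other p53 targets were lower, 6 p53 regulators higher and 7 lower, 8 p21 partners higher, 5 BCL-2 genes higher and 5 lower, and 13 DREAM genes higher and 4 lower. Gpx1, Cdk1, Cdk4, Mcl1, Mcm5 and Ell2 did not pass without the block and passed with it (edgeR adjusted p from 2.03e-07 for Ell2 to 0.0317 for Mcl1). Among the 10 genes, Trp53 (0.23 ± 0.11, edgeR adjusted p = 0.0605) and Cdkn1a (0.40 ± 0.19, 0.0645) did not pass with the block. Nor did Ccng1 (0.23 ± 0.12, edgeR adjusted p = 0.0751) or Zmat3 (-0.08 ± 0.12, 0.596). The block leaves 1 residual degree of freedom.

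List counts also moved with scaling and filter. With total-count scaling 3 p21 partners and 3 DREAM genes were higher and 4 DREAM genes lower, and with the upper quartile 3 and 3 were higher. Without the low-count filter 5 p53 regulators and 4 BCL-2 genes were lower and 8 DREAM genes higher. DESeq2 called 8 DREAM genes higher, and with its size factors 1 was lower. The cause of these shifts was not tested. With 1 library left out, counts ranged over 5 to 7 higher and 3 to 5 lower for other p53 targets, 3 higher and 0 to 4 lower for regulators, 2 to 3 and 1 to 3 for GADD45 partners, 2 to 4 and 2 to 4 for p21 partners, 0 to 3 and 2 to 3 for BCL-2 genes and 0 to 4 and 1 for DREAM genes. Annotation lengths exchanged Gadd45b and Trp53 at places 6 and 7 in controls and changed no other place in either group. The 2 libraries per group limit small changes, and Pmaip1 is limited by depth.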

Other observations

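Among the 10 genes and the pathway lists, 108 tested genes had a mean of at least 5 CPM in both groups. Of these, 4 differed between libraries 1 and 2 by at least 0.75 on the log2 scale in the same direction in both groups, as did 159 of 9517 genes over all; 3 of the 4 are described, named after their values were seen. Map2k3, a p38 kinase kinase, had 29.2 and 9.80 CPM in controls 1 and 2 and 29.5 and 11.3 CPM in stimulated 1 and 2. It was higher in the library numbered 1 whatever the treatment, and its log2 change with treatment was 0.06 ± 0.80. Ddit4, a stress-induced inhibitor of mTORC1, and Cdkn1a were lower in the library numbered 1, with 28.5 and 56.0 CPM before and 12.9 and 25.3 CPM after stimulation for Ddit4. The log2 change of Ddit4 with treatment was -1.15 ± 0.48 and did not pass (edgeR adjusted p = 0.138), though its groups did not overlap.

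Nearest in pattern to Cdkn1a were Calcrl, a receptor of the calcitonin family (distance 0.149), Ell2, an elongation factor of RNA polymerase II (0.303), and Lman2l (0.326). Calcrl had 3.35 and 9.29 CPM in controls 1 and 2 and 5.78 and 8.80 CPM in stimulated 1 and 2, and none of these 3 genes passed the test of stimulation, with edgeR adjusted p from 0.456 to 0.786. The sign of Calcrl and of Lman2l turned without control 1 (-0.35 and -0.19) and without stimulated 2 (-0.10 and -0.38).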
